A study of Homo sapiens with 2 samples.

Results

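The proteasome genes of Molm13, an established human AML line with a KMT2A::MLLT3 fusion, were compared between a vector control (Vector) and a library labelled as overexpressing UNC5B (OE-UNC5B), in which no UNC5B read was counted. The genes were taken by name, as every PSMA to PSMG gene with a number together with POMP, NFE2L1 and UBE3C. This gave 51 of the 50868 genes in the table. Per the methods, UNC5B was carried by a pLV3 lentivirus with a CMV promoter, a 3×FLAG tag, mCherry and puromycin resistance, and infected cells were screened with puromycin. Whether Vector cells were screened likewise, and whether the cells were pools or clones, is not given in the sources used here. Each group was 1 library of the same line, with no other genotype or treatment named, so no difference between the groups has a replicate check.

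The proteasome degrades proteins that carry ubiquitin chains. Its 20S core is a barrel of alpha and beta rings, and the PSMB5, PSMB6 and PSMB7 subunits hold the peptide-cutting sites. In cells exposed to interferon, and in many blood cells, these are replaced by PSMB8, PSMB9 and PSMB10, which form the immunoproteasome and favour peptides for MHC class I. The 19S cap binds the chains, removes them and feeds the unfolded protein into the core. Other activators open the core without ubiquitin, and dedicated chaperones assemble the particle. NFE2L1 is the transcription factor that raises subunit genes together when proteasome activity falls short. Leukaemia and myeloma cells are known for their dependence on this machinery.

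Counted reads numbered 13715566 for Vector and 15637137 for OE-UNC5B. UNC5B itself had 0 reads in both, which allows a level of up to 0.219 CPM in Vector and 0.192 CPM in the other (3 reads of the total), so the counts show no overexpression of the gene and every direction here rests on the label of the library labelled OE-UNC5B. All 10 myeloid markers examined had reads in both libraries, from 247 reads upward in Vector and from 443 upward in the other, and they summed to 74366 and 50191 reads. Without LYZ, which alone had 51742 and 23700, the other 9 summed to 22624 and 26491. The 4 endothelial markers together had 1 and 2 reads, with KDR, CDH5 and TEK at 0, and the 4 markers of HEK-293T cells, the line used to package virus, had 5 and 2 reads. The 3 B cell markers had 4 and 12 reads and the 3 erythroid markers 14 and 8, while of the 3 T cell markers CD3D alone had 67 and 102 reads and the others at most 2. Of the 10 myeloid markers, 5 had intervals above 0 and 4 below, from -1.36 for LYZ and -1.35 for MPO to 0.73 for PTPRC and 0.90 for MEIS1 on the log2 scale, and their part in the values below was not tested.

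Most proteasome genes were slightly lower under the OE-UNC5B label than in Vector. Of the 51 genes, 49 had at least 10 reads over both libraries, and 43 of these 49 were lower and 6 higher at any fold, with PSMD14 on the higher side when library totals or DESeq2 size factors set the scale (0.03 and 0.02 on the log2 scale). The median log2 fold change over the 49 was -0.31, against -0.01 over the 15384 genes tested. The shift was small and broad, with the middle 50% of members between -0.47 and -0.09. Together the 49 genes had 5663 CPM in Vector against 4409 CPM in the library labelled OE-UNC5B, a log2 ratio of their summed reads of -0.36 (95% interval from the reads -0.38 to -0.35). Fold changes, OE-UNC5B against Vector throughout, were computed on counts scaled with TMM, with 0.5 reads added, and intervals are Clopper-Pearson intervals that cover counting error only. PCR reads without molecular identifiers are not independent molecules. In bulk RNA, fewer cells of a type and less RNA per cell cannot be told apart.

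The interval lay below 0 for 35 of the 49 members and above 0 for 2, and it included 0 for 12. The number below 0 was 30 with library totals, 32 with DESeq2 size factors and 39 after subtraction of a trend on GC content and length. Among all genes tested it lay below 0 for 26.3% and above 0 for 25.1%, and 50.6% were lower and 49.4% higher at any fold. Members had more reads than most genes, with a median of 1490 in Vector against 269.5 over all genes tested, and more reads give narrower intervals. Among the 6877 genes with 644 to 7938 reads over both libraries, the range of the members without PSMB9, 35.3% had intervals below 0 and 35.0% above, and 50.4% were lower and 49.6% higher at any fold. The share of members below 0 was 71.4%. Large differences were few. By at least 2-fold with the interval past 0, 2 members were lower (4.08%, against 3.71% of all genes tested and 1.34% of those in the read range) and 0 were higher (against 3.80% and 1.80%). By at least 1.5-fold, 5 were lower (10.2%, against 8.76% and 6.57%) and 1 was higher (against 9.12% and 7.46%). Most of the members that were lower were therefore lower by less than 1.5-fold.

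**Figure D1:**
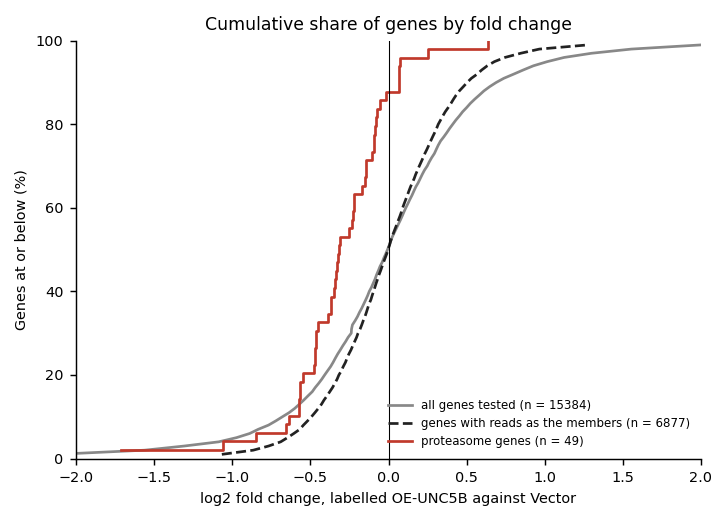
Cumulative share of genes (vertical axis, %) at or below a log2 fold change of OE-UNC5B against Vector (horizontal axis) for the 49 proteasome genes, the 15384 genes tested and the 6877 genes with similar read numbers. The curve of the proteasome genes lies to the left of both others around 0, with 43 of 49 genes below 0.

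**Figure D2:**
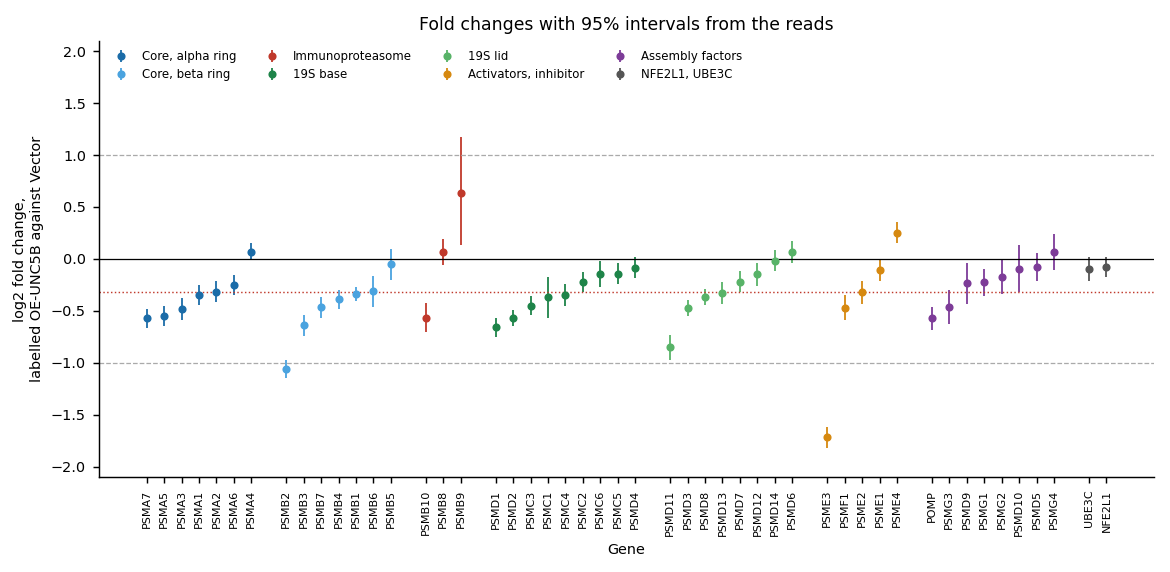
Log2 fold change of each of the 49 proteasome genes (library labelled OE-UNC5B against Vector, 1 library each) with its 95% interval from the reads, grouped by role. Dashed lines mark 2-fold, the dotted line marks the members' median of -0.31, and PSME3 and PSMB2 lie beyond the lower dashed line.

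The promoters of 4 members are shown. PSME3 and PSMB2 had the lowest fold changes, PSMB9 had the highest, and PSMA5 held the most matches to TGANNNNGC. Sequences are from RefSeq on GRCh38.p14 and hold 300 bases around the RefSeq start, most of them before it. The promoter table gave them for 45 of the 51 genes. Capitals mark matches on either strand to TGANNNNGC, to CCAAT, the NF-Y box, or to CCGGAAG, the ETS core. TGANNNNGC is a loose form of TGACNNNGC, the antioxidant response element core that NFE2L1 and related factors bind, and of the 4 promoters shown PSMB9 alone holds TGACNNNGC (the capitals that end in CGTCA, on the opposite strand).
PSME3 (chr17:42833147-42833446, plus strand): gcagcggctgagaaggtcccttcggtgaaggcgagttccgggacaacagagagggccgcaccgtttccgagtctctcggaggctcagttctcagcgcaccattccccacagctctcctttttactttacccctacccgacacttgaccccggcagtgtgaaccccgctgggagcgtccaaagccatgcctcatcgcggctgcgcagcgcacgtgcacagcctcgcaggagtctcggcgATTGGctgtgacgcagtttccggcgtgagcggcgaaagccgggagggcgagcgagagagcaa
PSMB2 (chr1:35641477-35641776, minus strand): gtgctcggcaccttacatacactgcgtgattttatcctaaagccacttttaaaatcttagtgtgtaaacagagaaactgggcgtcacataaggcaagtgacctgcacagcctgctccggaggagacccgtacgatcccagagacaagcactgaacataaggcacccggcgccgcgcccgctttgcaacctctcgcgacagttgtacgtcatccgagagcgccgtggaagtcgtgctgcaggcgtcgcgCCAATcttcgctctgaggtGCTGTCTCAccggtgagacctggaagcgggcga
PSMA5 (chr1:109426399-109426698, minus strand): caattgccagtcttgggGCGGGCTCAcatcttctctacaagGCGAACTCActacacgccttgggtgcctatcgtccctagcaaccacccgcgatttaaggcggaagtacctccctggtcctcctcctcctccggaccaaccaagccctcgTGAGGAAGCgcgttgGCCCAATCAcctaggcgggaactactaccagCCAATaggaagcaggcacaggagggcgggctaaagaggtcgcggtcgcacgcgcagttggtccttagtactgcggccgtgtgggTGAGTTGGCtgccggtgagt
PSMB9 (chr6:32853942-32854241, plus strand): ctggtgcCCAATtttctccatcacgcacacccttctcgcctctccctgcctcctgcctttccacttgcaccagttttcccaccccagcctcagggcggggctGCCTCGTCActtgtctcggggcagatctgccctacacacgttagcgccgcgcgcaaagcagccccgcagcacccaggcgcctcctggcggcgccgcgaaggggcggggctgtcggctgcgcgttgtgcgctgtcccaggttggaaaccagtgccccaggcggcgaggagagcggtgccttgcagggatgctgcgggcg
In PSMA5, 1 match to TGANNNNGC overlaps a match to CCAAT. Over the 45 promoters, TGANNNNGC was found in 28 (62.2%), against 41.8% of the 35116 promoters of all genes. Members were counted per gene and the background per promoter, with or without reads of the gene, so these shares are not matched. TGACNNNGC, searched after the other values were seen, was found in 15 (33.3%, against 13.3%). CCAAT was found in 21 (46.7%, against 34.6%) and CCGGAAG in 16 (35.6%, against 10.3%). The core of the interferon-stimulated response element (GAAA, NN and GAAA in a row) was found in 7 (15.6%, against 3.57%), namely PSMA4, PSMB4, PSMB8, PSMB10, PSME1, PSME2 and PSMG4. The 15 tested members with CCGGAAG had a median fold change of -0.22 on the log2 scale, and the 28 without it had -0.33. For TGANNNNGC the medians were -0.24 with it (26 genes) and -0.31 without it (17 genes), and for TGACNNNGC -0.17 (15 genes) and -0.34 (28 genes). For CCAAT they were -0.22 (20 genes) and -0.32 (23 genes), and for the interferon element -0.11 (7 genes) and -0.28 (36 genes). These are descriptions, and the part of any motif in the fold changes was not tested.

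The core was lower in both rings. Of its 14 constitutive subunits, 13 were lower (92.9%, against 50.6% of all genes tested), and the median log2 fold change was -0.37. Intervals lay below 0 for 12 (85.7%, against 26.3% of all genes tested and 35.3% of those in the read range). The summed reads of the core had a log2 ratio of -0.42 (interval -0.44 to -0.39). The alpha ring, which forms the gate of the barrel, had a median of -0.35, with PSMA7 at the low end and PSMA4 at the high end. PSMA7 had 2337 reads in Vector against 1853 in the library labelled OE-UNC5B, a log2 fold change of -0.57 (interval -0.66 to -0.48). After subtraction of the trend on GC content and length PSMA7 was at -0.43, and PSMA5 was the lowest of the ring at -0.68. PSMA4 had 2334 reads against 2888, a log2 fold change of 0.07 (interval -0.01 to 0.15), and was the 1 core gene that was not lower, although it was at -0.05 after subtraction of the trend. With library totals it was at 0.12 with an interval above 0. PSMA5 and PSMA3 had log2 fold changes of -0.55 and -0.48. PSMA1, PSMA2 and PSMA6 lay between -0.35 and -0.25, although PSMA2 and PSMA6 were at -0.48 and -0.40 after subtraction of the trend.

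In the beta ring 6 of the 7 constitutive subunits had intervals below 0 (85.7%, against 26.3% of all genes tested and 35.3% of those in the read range). The median of the 7 was -0.39. PSMB2, a beta subunit without a cutting site, lies on chromosome 1 from 35599544 to 35641844 on the minus strand of GRCh38. It had 2957 reads in Vector against 1671 in the library labelled OE-UNC5B, a log2 fold change of -1.06 (interval -1.15 to -0.97). Its share of the reads of PSMB1 to PSMB7, which does not depend on the scaling between libraries, was 20.8% in Vector (95% Clopper-Pearson interval 20.2 to 21.5) and 14.2% in the other (13.6 to 14.9). The other 29 genes tested within 1 Mb of it had a median of -0.15, with 20 lower, 4 of them by at least 1.5-fold and 2 by at least 2-fold. Of all genes tested, 50.6% were lower, 8.76% by at least 1.5-fold and 3.71% by at least 2-fold. PSMB3, also without a cutting site, had 1877 reads against 1422, a log2 fold change of -0.64 (interval -0.74 to -0.54). PSMB7, PSMB4 and PSMB1 had log2 fold changes of -0.47, -0.39 and -0.34. The catalytic subunits PSMB6 and PSMB5 were nearest to 0 in this ring, at -0.31 and -0.05. The interval of PSMB5 included 0 (-0.21 to 0.10), and its value was -0.01 with library totals and 0.06 after subtraction of the trend.

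By the authors' FPKM, core subunits of one particle were far from equal in level. In Vector, FPKM ran from 11.1 for PSMA4 to 118 for PSMB1, with a core median of 21.3. In the library labelled OE-UNC5B it ran from 10.4 for PSMA6 to 96.2 for PSMB1, with a median of 15.5. PSMB3, PSMA7 and PSMB7 followed PSMB1 in both libraries, at 68.4, 59.9 and 53.4 FPKM in Vector. These levels depend on the transcript length the authors assigned, which ran from 1428 to 23467 bases over the members when worked out from reads and FPKM. PSMA4 and PSMA7 had 2334 and 2337 reads in Vector but 11.1 and 59.9 FPKM, so their FPKM differ through the assigned length. The spread of FPKM is therefore not a spread of RNA levels alone.

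**Figure D3:**
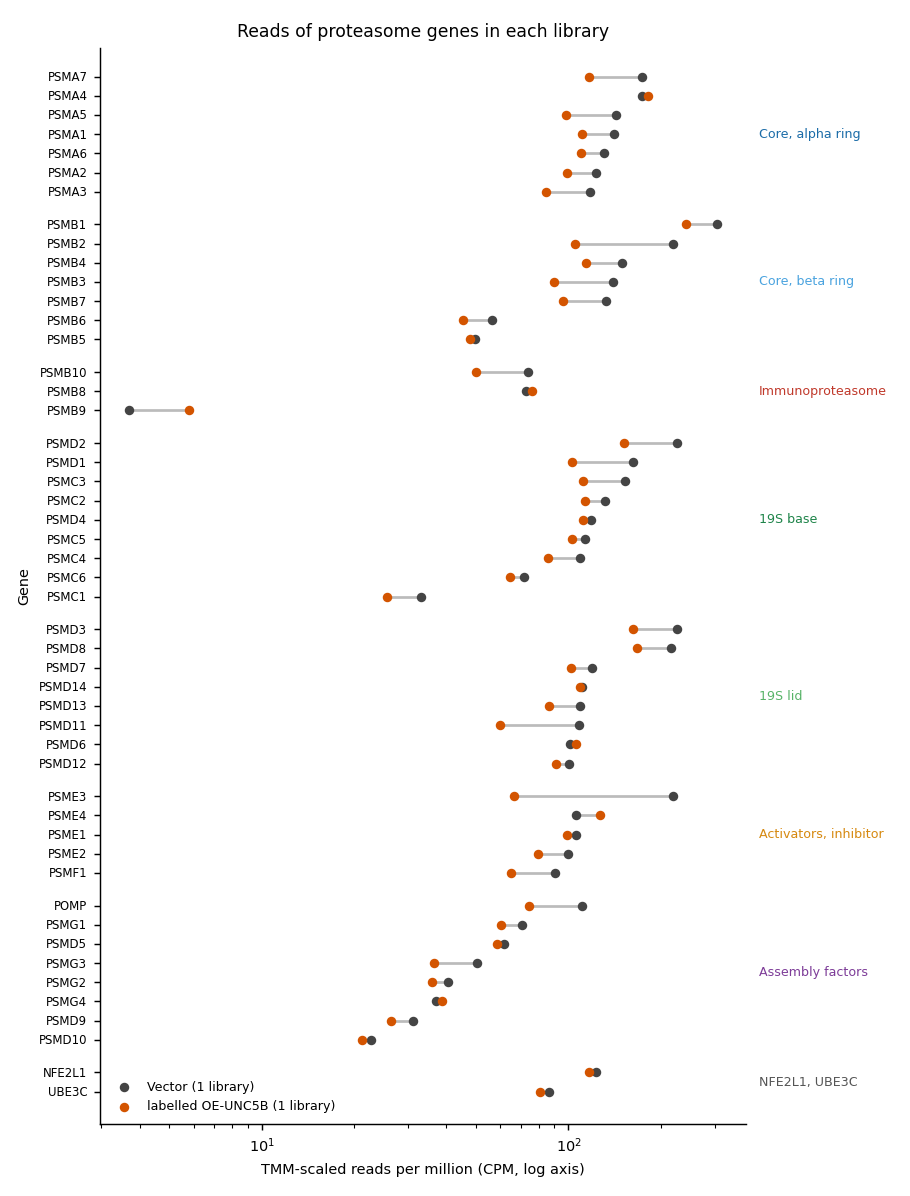
Level of the 49 tested proteasome genes in each library in TMM-scaled CPM (horizontal log axis), with 1 dot per library and genes ordered by role and by level in Vector. The dot of the library labelled OE-UNC5B lies to the left for 43 genes, furthest for PSME3 and PSMB2, and to the right for PSMA4, PSMB8, PSMB9, PSMD6, PSME4 and PSMG4.

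The immunoproteasome subunits did not share a direction. PSMB8, which takes the place of PSMB5, had 980 reads in Vector against 1209 in the library labelled OE-UNC5B, a log2 fold change of 0.07 (interval -0.06 to 0.19). PSMB9, which takes the place of PSMB6, had 50 reads against 92, a log2 fold change of 0.64 (interval 0.13 to 1.17), the highest of all members. PSMB10, which takes the place of PSMB7, had 995 reads against 793, a log2 fold change of -0.56 (interval -0.70 to -0.43). Thus 1 of the 3 was higher, 1 was lower and 1 had an interval that included 0. After subtraction of the trend on GC content and length, PSMB8 was at 0.14 with an interval above 0 and PSMB10 at -0.37.

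Among the partners they replace, PSMB5 had 670 reads in Vector against 761 in the library labelled OE-UNC5B. PSMB6 had 761 reads against 722. PSMB7 had 1792 reads against 1529. PSMB8 had 59.4% of the reads of its pair in Vector (interval 57.0 to 61.8) and 61.4% in the other (59.2 to 63.5). PSMB10 held 35.7% of its pair (33.9 to 37.5) against 34.2% (32.2 to 36.1). PSMB9 held 6.17% of its pair (4.61 to 8.05) against 11.3% (9.21 to 13.7), and this was the 1 pair whose intervals did not overlap. Over the 3 pairs the immunoproteasome share was 38.6% (37.3 to 39.9) against 41.0% (39.7 to 42.4). As shares of FPKM, which rest on the lengths the authors assigned, PSMB8 held 62.6% and 64.6% of its pair, PSMB9 held 3.91% and 7.31%, and PSMB10 held 29.2% and 27.8%. By FPKM, then, PSMB8 was above the subunit it replaces in both libraries, while PSMB9 and PSMB10 were below theirs.

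PSMB8 and PSMB9 lie next to each other in the MHC region of chromosome 6, on opposite strands, and 139 of their exonic bases overlap. The antisense gene PSMB8-AS1 overlaps 602 exonic bases of PSMB8 and 174 of PSMB9 and had 124 reads in Vector against 239 in the library labelled OE-UNC5B. The use of strand in counting is not given in the sources used here, so reads of these genes may be split and the value of PSMB9 is uncertain. PSMB10 overlaps AC040162.1 over 39.4% of its exonic bases on the same strand. With the reads of that gene added, the log2 fold change of PSMB10 was -0.60. PSMA8, the testis form of an alpha subunit, and PSMB11, the thymus form of PSMB5, had 0 reads in both libraries, which allows up to 0.219 CPM for Vector and 0.192 CPM for OE-UNC5B.

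**Figure D4:**
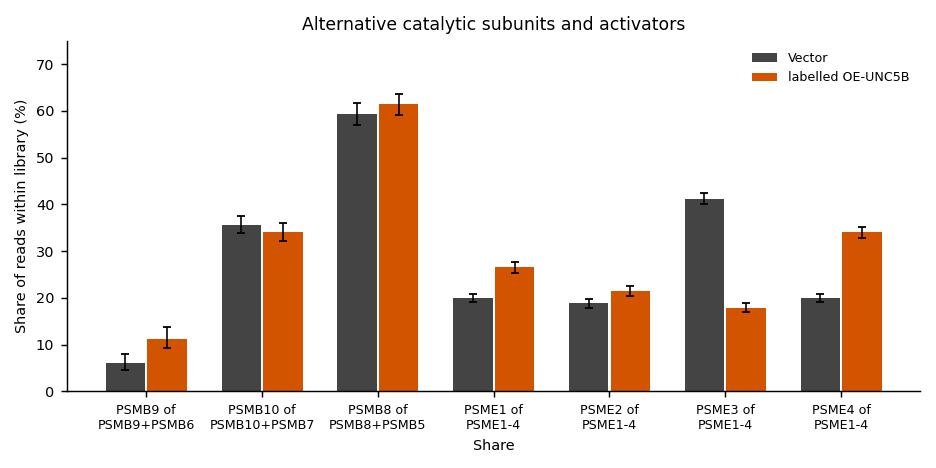
Share of reads (vertical axis, %) of each immunoproteasome subunit within its pair and of each activator among PSME1 to PSME4, for Vector and the library labelled OE-UNC5B, with 95% Clopper-Pearson intervals from the reads. PSME3 goes from 41.2% to 17.9% and PSMB9 from 6.17% to 11.3%, while the intervals of PSMB8 and PSMB10 overlap between libraries.

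The cap was also lower. Of its 17 subunits, 16 were lower (94.1%, against 50.6% of all genes tested), with a median log2 fold change of -0.33. Intervals lay below 0 for 14 (82.4%, against 26.3% of all genes tested and 35.3% of those in the read range). They lay above 0 for 0 (against 25.1% and 35.0%). With library totals the intervals of PSMC5, PSMC6 and PSMD12 included 0 and that of PSMD6 lay above 0. Its summed reads had a log2 ratio of -0.33 (interval -0.36 to -0.31). The base, which holds the ATPase ring that unfolds substrates, had a median of -0.35, and all 9 of its genes were lower. PSMD1, a scaffold that docks ubiquitin receptors, had 2192 reads in Vector against 1635 in the library labelled OE-UNC5B, a log2 fold change of -0.66 (interval -0.75 to -0.57). PSMD2, the other large scaffold, had a log2 fold change of -0.57. PSMD4, a ubiquitin receptor, had 1597 reads against 1775, a log2 fold change of -0.08 (interval -0.18 to 0.01). The 6 ATPases lay between these, from -0.45 for PSMC3 to -0.14 for PSMC5, with PSMC1 at -0.37, PSMC4 at -0.35, PSMC2 at -0.22 and PSMC6 at -0.15. Their order depended on the setting, with PSMC2 at -0.40 and PSMC6 at -0.30 after subtraction of the trend on GC content and length.

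Reads of PSMC1 may be split with a copy. PSMC1 had 446 reads in Vector against 407 in the library labelled OE-UNC5B, whereas its processed pseudogene PSMC1P1, on chromosome 3 from 68635705 to 68637024, had 1379 and 1408 reads. The value of PSMC1 is therefore uncertain. With the reads of its pseudogenes added, its log2 fold change was -0.25 (interval -0.34 to -0.15). In addition, 76.2% of the exonic bases of PSMC1 overlap NRDE2 on the opposite strand. Of the 32 pseudogenes of members examined, 27 had at most 3 reads in each library.

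In the lid, which removes ubiquitin chains, 7 of the 8 genes were lower (87.5%, against 50.6% of all genes tested), with a median of -0.27. PSMD11, which helps to join base and lid, had 1457 reads in Vector against 952 in the library labelled OE-UNC5B, a log2 fold change of -0.85 (interval -0.97 to -0.73). Its share of the reads of the lid was 9.92% in Vector (interval 9.44 to 10.4) and 6.78% in the other (6.37 to 7.21). PSMD14, the deubiquitinating enzyme of the lid, had 1490 reads against 1735, a log2 fold change of -0.02 (interval -0.12 to 0.08), but -0.25 (-0.35 to -0.15) after subtraction of the trend on GC content and length. PSMD6 had 1362 reads against 1681, a log2 fold change of 0.07 (interval -0.04 to 0.17), the highest of the cap, but -0.12 after the same subtraction. The structural subunits PSMD3, PSMD8, PSMD13, PSMD7 and PSMD12 had log2 fold changes of -0.47, -0.37, -0.33, -0.22 and -0.15.

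The activators held the largest difference of the family. PSME3 encodes PA28 gamma, a nuclear activator that opens the core for ubiquitin-independent degradation of proteins such as cell cycle inhibitors. It lies on chromosome 17 from 42824385 to 42843758 on the plus strand of GRCh38. It had 2951 reads in Vector against 1059 in the library labelled OE-UNC5B, or 219 and 66.6 CPM, the widest gap of any member. The log2 fold change was -1.72 (interval -1.82 to -1.61).

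No other activator was lower to that extent. PSME1 and PSME2 encode the alpha and beta chains of the PA28 ring, which is raised by interferon and serves antigen presentation. PSME1 had 1430 reads in Vector against 1567 in the library labelled OE-UNC5B, a log2 fold change of -0.11 with an interval that ended just below 0, and 0.0115 after subtraction of the trend on GC content and length. PSME2 had 1347 reads against 1269, a log2 fold change of -0.32 (interval -0.43 to -0.21). PSME4, the large activator PA200, was higher. It had 1432 reads against 2010, a log2 fold change of 0.25 (interval 0.15 to 0.35). After subtraction of the trend it was at 0.09 (-0.01 to 0.19), so this call was lost there. The other 8 genes tested within 1 Mb of PSME4 had a median of 0.22, with 6 higher, against 49.4% of all genes tested. The part of the region in the value of PSME4 was not tested. PSMF1, which inhibits the core in vitro, had 1218 reads against 1035, a log2 fold change of -0.47 (interval -0.59 to -0.35).

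Among the reads of PSME1 to PSME4, PSME3 had 41.2% in Vector (interval 40.1 to 42.4) and 17.9% in the library labelled OE-UNC5B (17.0 to 18.9). PSME4 had 20.0% (19.1 to 20.9) against 34.04% (32.8 to 35.3), PSME1 had 20.0% against 26.5%, and PSME2 had 18.8% against 21.5%. The shares sum to 100%, so a lower share of PSME3 raises the others, and those of PSME1 and PSME2 were higher although their own fold changes were below 0. By FPKM, which rests on the lengths the authors assigned, PSME3 was second to PSME1 in Vector, at 14.7 beside 24.2, and the lowest of the 4 in the other, at 4.63 beside 7.04 for PSME2. Shares within a library do not depend on the scaling between libraries. BECN1 overlaps 300 exonic bases of PSME3 on the opposite strand, and had 896 and 966 reads. The other 57 genes tested within 1 Mb of PSME3 had a median of -0.07, with 30 lower, 4 of them by at least 1.5-fold and 1 by at least 2-fold. The shares over all genes tested were 50.6%, 8.76% and 3.71%. PSME3IP1, which binds PSME3 in the nucleus, had 967 reads in Vector and 1321 in the other, a log2 fold change of 0.21.

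Over the 8 assembly factors the middle value of the log2 fold change was -0.20, nearer to 0 than in core and cap, and this difference was not tested. Of these, 4 had intervals below 0 (4 of 8, against 26.3% of all genes tested and 35.3% of those in the read range) and 0 had intervals above 0. POMP, which guides core assembly, had 1493 reads in Vector against 1183 in the library labelled OE-UNC5B, a log2 fold change of -0.57 (interval -0.68 to -0.46). PSMG3, a chaperone of alpha ring assembly, had 678 reads against 580, a log2 fold change of -0.46 (interval -0.62 to -0.30). Its partner PSMG4 had 499 reads against 617, a log2 fold change of 0.07 (interval -0.10 to 0.24), and the intervals of this pair did not overlap. After subtraction of the trend they did, with PSMG3 at -0.30 (-0.46 to -0.13) and PSMG4 at 0.01 (-0.16 to 0.18). The other chaperone pair was closer together. PSMG1 had 951 reads against 958, a log2 fold change of -0.23. PSMG2 had 546 reads against 572, a log2 fold change of -0.17 with an interval that included 0, but -0.39 with an interval below 0 after subtraction of the trend.

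Among the chaperones of the base, PSMD9 had 420 reads in Vector against 421 in the library labelled OE-UNC5B, a log2 fold change of -0.23 (interval -0.43 to -0.04), with an interval that included 0 under library totals. PSMD10, also known as gankyrin, had 306 reads against 338, a log2 fold change of -0.09. PSMD5 had 833 reads against 931, a log2 fold change of -0.08. The intervals of PSMD10 and PSMD5 included 0, that of PSMD5 not after subtraction of the trend (-0.16).

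NFE2L1 had 1656 reads in Vector against 1850 in the library labelled OE-UNC5B, a log2 fold change of -0.08 (interval -0.17 to 0.02). UBE3C, a ubiquitin ligase that extends chains on substrates at the proteasome, had 1162 reads against 1284, a log2 fold change of -0.09 (interval -0.21 to 0.02). Both intervals included 0. After subtraction of the trend on GC content and length, UBE3C was at -0.19 (-0.30 to -0.07) and NFE2L1 at -0.05 (-0.14 to 0.05). RNA levels do not show the processing of the NFE2L1 protein, which was not measured here.

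Other genes of the pathway were taken as 4 lists, to be read beside the 35.0% of genes in the read range with intervals above 0 and the 35.3% below. Of 17 proteasome partners, 6 had intervals above 0 (35.3%) and 7 below (41.2%), near those shares, and the median log2 fold change was -0.11. ADRM1 and SEM1, cap subunits that do not carry a PSM name, had log2 fold changes of -0.25 and -0.38, and ECPAS and AKIRIN2, a proteasome adaptor and a nuclear import factor, had 0.40 and 0.31. None of the 17 passed 1.5-fold. Of 12 ubiquitin genes and enzymes, 3 had intervals above 0 and 7 below (58.3%), with a median of -0.13. UBB, a polyubiquitin gene, passed 1.5-fold, with 2655 reads in Vector against 2077 in the library labelled OE-UNC5B and a log2 fold change of -0.59.

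Of 13 genes of transcription control and NFE2L1 processing, 9 had intervals above 0 (69.2%) and 3 below (23.1%), with a median log2 fold change of 0.28. Higher by at least 2-fold were 2, against 3.80% of all genes tested and 1.80% of those in the read range. OGT, the enzyme that adds N-acetylglucosamine to nuclear and cytosolic proteins, had 5168 reads in Vector against 18498 in the library labelled OE-UNC5B, a log2 fold change of 1.60. MAFK, a small MAF partner of NFE2L1 and NFE2L2, had 271 reads against 705, a log2 fold change of 1.14. DDI2, the protease that activates NFE2L1, and NGLY1, which removes its sugars, had log2 fold changes of 0.28 and 0.22. VCP, which extracts it from the endoplasmic reticulum, had one of -0.56, and NFE2L3 and SYVN1 had -0.40 and -0.41.

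Of 13 class I presentation genes, which use the peptides that the immunoproteasome makes, 8 had intervals above 0 (61.5%) and 3 below (23.1%), with a median log2 fold change of 0.08. HLA-E had 2854 reads in Vector against 5196 in the library labelled OE-UNC5B, a log2 fold change of 0.63. ERAP2, a peptide-trimming enzyme, had 600 reads against 1079, a log2 fold change of 0.61. TAP1 and TAP2, the peptide transporter genes beside PSMB8 and PSMB9, had log2 fold changes of 0.51 and 0.54. B2M and TAPBP had log2 fold changes of -0.14 and -0.35, so this list did not have a single direction.

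**Figure D5:**
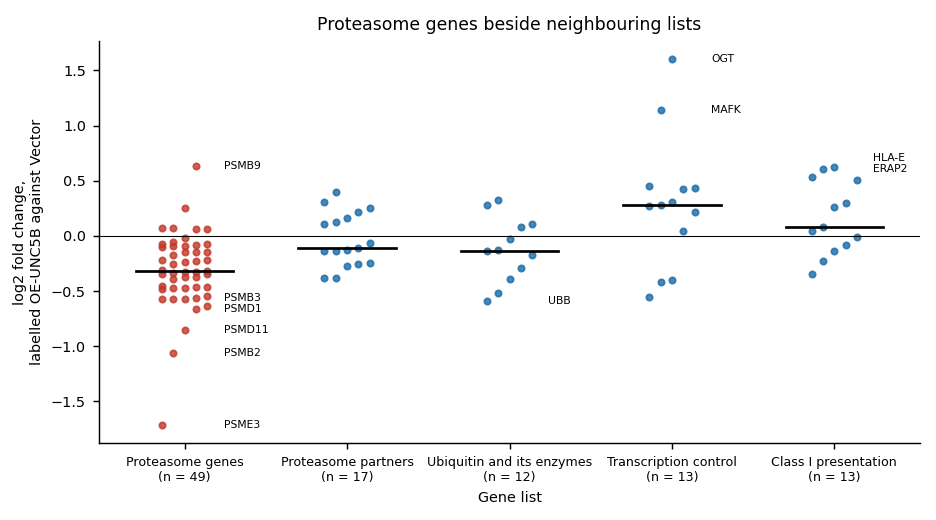
Log2 fold change (vertical axis, library labelled OE-UNC5B against Vector) of the 49 proteasome genes and of the genes in 4 neighbouring lists, with 1 point per gene, a bar at each median and names for genes past 1.5-fold. The median of the proteasome genes, -0.31, is the lowest of the 5, and that of the transcription control list, 0.28, is the highest.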

How the data were processed

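RNA of Molm13 cells was sequenced, with 1 library per group. The methods name the VAHTS Universal V6 kit and an Illumina platform. The submitters' processing notes name bcl2fastq 2.19, HISAT2 2.0.4, StringTie 1.3.0 and GRCh38. Which annotation was used, and whether strand was, is not given in the sources used here. For each gene the table deposited by the authors holds whole-number read counts that were not normalized. Beside them the authors gave FPKM, which is scaled to gene length and to counted reads.

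TMM factors from edgeR 4.0.16 in R 4.3.3 scaled the counts. The 15384 genes whose reads in both libraries summed to at least 10 were examined, with 0.5 reads added for log2 fold changes. Each interval is a 95% Clopper-Pearson interval (scipy 1.17.1). With 1 library per group no test of the conditions could be fitted, and no p-value is given. A gene was counted past 2-fold or 1.5-fold when its interval also excluded 0. The steps were tested on simulated counts drawn with counting error only. This checks the computation and says nothing about the spread between cultures. The members, their roles and the 4 neighbouring lists were chosen with earlier results of these data known. All members may be named, with neighbouring genes past 1.5-fold, and others were named after their values were seen. All 51 members were found on the same chromosome and strand in GENCODE 44, which gave overlaps, lengths and GC content. The members had a median of 1490 reads for Vector and 1443 for OE-UNC5B, and a median interval of 0.10 to either side on the log2 scale. The alternatives tried were scaling by library totals or by size factors from DESeq2 1.42.0, FPKM (0.1 or 1 added, minimum 1), 2 reads added, no filter, at least 50 reads, subtraction of a trend on GC content and length, edgeR's exact test with assumed biological coefficients of variation, and the reads of pseudogenes and readthrough genes added.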

Additional observations from a re-analysis of the deposited data

How the results depend on the processing

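No paired analysis was possible because each group held a single library, and no replicate could be left out for the same reason. Median log2 fold changes moved with the scaling, since they carry it in full, but none changed side. The medians over all members, core and cap were -0.27, -0.32 and -0.28 with library totals, -0.28, -0.33 and -0.29 with DESeq2 size factors, -0.27, -0.32 and -0.28 with FPKM and 0.1 added, and -0.25, -0.30 and -0.25 with FPKM and 1 added. Those of activators and inhibitor were -0.28, -0.27 and -0.24 with library totals and with FPKM and 0.1 or 1 added, and that of the assembly factors was -0.12 with 1 added. After subtraction of a trend on GC content and length, the medians were -0.39 for core, -0.30 for cap, -0.27 for activators and inhibitor and -0.26 for assembly factors, and PSME1 turned from -0.11 to 0.0115. PSMA4, PSMD6 and PSMB5 changed side there too, at -0.05, -0.12 and 0.06. Of 49 members, 20 moved by over 1.5 times and 8 changed whether their interval included 0. PSMD14 (-0.25), PSMG2 (-0.39), PSMD5 (-0.16), UBE3C (-0.19) and PSMD6 went below 0, PSMB8 (0.14) went above 0, and PSME4 (0.09) and PSME1 came to include 0. PSMC2, PSMC6, PSMD12, PSMA2 and PSMA6 were at -0.40, -0.30, -0.28, -0.48 and -0.40, and PSMB6, PSMB10 and PSMG3 at -0.17, -0.37 and -0.30. The cause was not tested. With reads of readthrough genes and pseudogenes added, chosen after seeing the data, the cap was at -0.25. Intervals above 0 numbered 4 with library totals, against 2, and those below 0 numbered 30, against 35. There PSMA4 and PSMD6 went above 0, and PSMC5, PSMC6, PSMD12, PSME1 and PSMD9 came to include 0, and with DESeq2 size factors PSMA4 went above 0 and PSMC6, PSME1 and PSMD9 came to include it. With FPKM and 1 added, 1 member was lower by 2-fold, 3 were lower by 1.5-fold and 0 were higher by 1.5-fold. The exact test with an assumed coefficient of variation of 0.1, 0.2 or 0.4 left the fold changes as they were. It altered only the calls, which there rest on an adjusted p-value. Fewer members were called lower by 2-fold or 1.5-fold at 0.2 than at 0.1, and none at 0.4. The call of PSMB9 as higher by 1.5-fold was lost at each value. The spread between cultures was not measured. The immunoproteasome share was 34.2% and 36.9% by FPKM. By pair it was 59.4% and 61.4% for PSMB8, 6.17% and 11.3% for PSMB9, and 35.7% and 34.2% for PSMB10, lower in the library labelled OE-UNC5B for that pair alone. Adding 2 reads, no filter and at least 50 reads moved none of these results beyond their intervals or 1.5 times. With no filter the median over all 50868 genes was -0.24 rather than -0.01, which is the value that scaling gives to a gene with 0 reads in both libraries, so that median is no comparator for the members. Depth limits PSMB9, with 50 and 92 reads.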
